A study of Mus musculus with 18 samples.

Results

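The genes described here are 9 members of the transforming growth factor beta (TGF-beta) family and its ovarian partners: Gdf9, Bmp15, Inha, Inhba, Inhbb, Fst, Amhr2, Bmp2 and Bmp4. They were chosen by name, as the non-control probes whose gene name in the scanner files was a member, which gave 11 probes for 9 genes out of 19299 genes tested. Expression was measured on 1-colour arrays in whole XX gonads of mice of 2 genotypes, Elavl2 knockout and wild type. The stages were fetal (E15.5 and E17.5, in embryonic days) and newborn (P0). The Elavl2 protein binds RNA and belongs to the ELAV family. Each of the 6 groups, knockout and wild type at each stage, held 3 arrays. The labels give neither the construction of the knockout allele nor the number of animals behind a sample, and they mark every sample as mixed without saying what was mixed. The p-values therefore measure the spread between these samples, which may be technical.

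TGF-beta family ligands are secreted dimers that bind pairs of type 1 and type 2 serine/threonine kinase receptors, which pass the signal to SMAD proteins. In the ovary, GDF9 and BMP15 are made by the oocyte and act on the granulosa cells around it. The alpha subunit Inha pairs with a beta subunit, Inhba or Inhbb, to make inhibins, while dimers of beta subunits are activins. Follistatin, the product of Fst, binds activins and blocks them. Amhr2 is the type 2 receptor of anti-Müllerian hormone, and Bmp2 and Bmp4 are bone morphogenetic proteins.

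The probes that carried the measurements are 60 bases long, and their positions are on build mm9, as in the files. The Gdf9 probe lay at chr11:53251307-53251366 on the plus strand and the Bmp15 probe at chrX:5891550-5891609 on the minus strand. The probes used for Inha and Inhbb lay at chr1:75506675-75506734 (plus strand) and chr1:121312083-121312142 (minus strand). Those for Inhba and Fst lay at chr13:16118634-16118693 (plus strand) and chr13:115244692-115245364 (minus strand), and the Fst probe is split over that span of 673 bases. Those for Amhr2, Bmp2 and Bmp4 lay at chr15:102284930-102284989 (plus strand), chr2:133386981-133387040 (plus strand) and chr14:47003802-47003861 (minus strand). Exon and UTR annotation on mm9 was not used here. Inha and Inhbb had a second, dimmer probe each, and these are shown because they give a separate reading of 2 genes that differed at P0. The Bmp4 probe, spotted 10 times per array, is shown with them.
Inha second probe, chr1:75503955-75504014 (plus strand): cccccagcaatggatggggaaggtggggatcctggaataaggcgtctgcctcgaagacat
Inhbb second probe, chr1:121314417-121314476 (minus strand): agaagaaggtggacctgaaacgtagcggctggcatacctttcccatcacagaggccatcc
Bmp4 probe, chr14:47003802-47003861 (minus strand): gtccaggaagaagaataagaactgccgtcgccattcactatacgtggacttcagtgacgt

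Promoter windows of 300 bases, from 250 before to 50 after the start of a gene, were available in RefSeq (GRCm38.p6) for 6 of the 9 members: Bmp15, Inha, Inhba, Inhbb, Amhr2 and Bmp4. They were searched on both strands for the E-box CANNTG, the letters bound by basic helix-loop-helix factors, and for TAATTG and TAATTA, core letters of homeobox factors. No 2 matches overlapped in these windows. Of all 32851 windows, 72.3% held CANNTG, 8.0% held TAATTG on either strand and 5.3% held TAATTA. The windows of Bmp15, Bmp4 and Inhbb are shown because these genes were lower in knockout at P0, with matches in capitals.
Bmp15, chrX:6320675-6320974 (minus strand): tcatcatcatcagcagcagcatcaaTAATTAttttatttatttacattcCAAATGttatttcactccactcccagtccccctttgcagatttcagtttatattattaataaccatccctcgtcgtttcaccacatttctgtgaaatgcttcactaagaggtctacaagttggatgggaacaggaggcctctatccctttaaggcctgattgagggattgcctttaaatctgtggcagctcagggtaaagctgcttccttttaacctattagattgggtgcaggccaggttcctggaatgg
Bmp4, chr14:46390620-46390919 (minus strand): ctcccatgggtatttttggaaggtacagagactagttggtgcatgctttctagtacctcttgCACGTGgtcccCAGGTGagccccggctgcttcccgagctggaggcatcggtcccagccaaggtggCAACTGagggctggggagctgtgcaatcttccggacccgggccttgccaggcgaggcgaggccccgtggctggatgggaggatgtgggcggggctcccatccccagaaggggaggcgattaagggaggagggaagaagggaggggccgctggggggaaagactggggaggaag
Inhbb, chr1:119422199-119422498 (minus strand): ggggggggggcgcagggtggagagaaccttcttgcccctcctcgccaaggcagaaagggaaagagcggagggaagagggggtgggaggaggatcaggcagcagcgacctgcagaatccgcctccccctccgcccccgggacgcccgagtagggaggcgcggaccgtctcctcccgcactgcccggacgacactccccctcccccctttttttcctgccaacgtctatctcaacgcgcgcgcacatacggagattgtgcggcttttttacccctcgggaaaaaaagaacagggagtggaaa

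The Bmp15 window held 1 TAATTA, 225 bases before the start, and 1 E-box, 201 bases before it. The Bmp4 window held 3 E-boxes, at 188, 177 and 123 bases before the start, and the Inhbb window held none of the 3 motifs. The Inhba window held TAATTG or its reverse complement at 3 places (206, 135 and 62 bases before the start), and the Amhr2 window held 1 of these and 1 E-box. The second Inha probe was found whole inside the Inha window, at bases 22 to 81 of 300, so that window covers transcribed sequence, and its matches are not described. A match is a description of letters in these windows.

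Values below are log2 signals minus the array's 75th percentile, and changes are knockout minus wild type on that log2 scale from the limma model, with the standard error (SE) after ±. In a comparison of genotypes, rose and fell mean higher and lower in knockout than in wild type, not a change with stage. The adjusted p is that of Benjamini and Hochberg over all 19299 genes, and a gene below 0.05 is termed called. Replicate arrays correlated with r from 0.9650 to 0.9948, and 62.5% to 75.2% of probes per array were well above background. All E15.5 arrays and replicate 3 of both E17.5 groups were scanned in run A and the others in run B. The wild type arrays of E15.5 and of P0 each sat on a slide that held no knockout array, so the model has no comparison within a slide there. At E17.5 the genotypes shared a slide only for replicate 3. Elavl2 averaged 2.00, 2.65 and 3.16 in knockout at E15.5, E17.5 and P0, against 2.11, 3.51 and 4.52 in wild type. Its change was −0.11, −0.87 and −1.36 (adjusted p 0.75, 0.00448 and 9.09e-06). A second, dimmer Elavl2 probe changed by −0.45, −0.97 and −1.63 (adjusted p 0.173, 0.0064 and 1.57e-05 over 29203 probes, limma). At E15.5 that probe ranged from −3.33 to −3.11 in knockout and from −2.90 to −2.66 in wild type, without overlap. Where the 2 Elavl2 probes lie relative to the deleted part is not given in the sources used here, so these values do not check the labels.

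**Figure D1:**
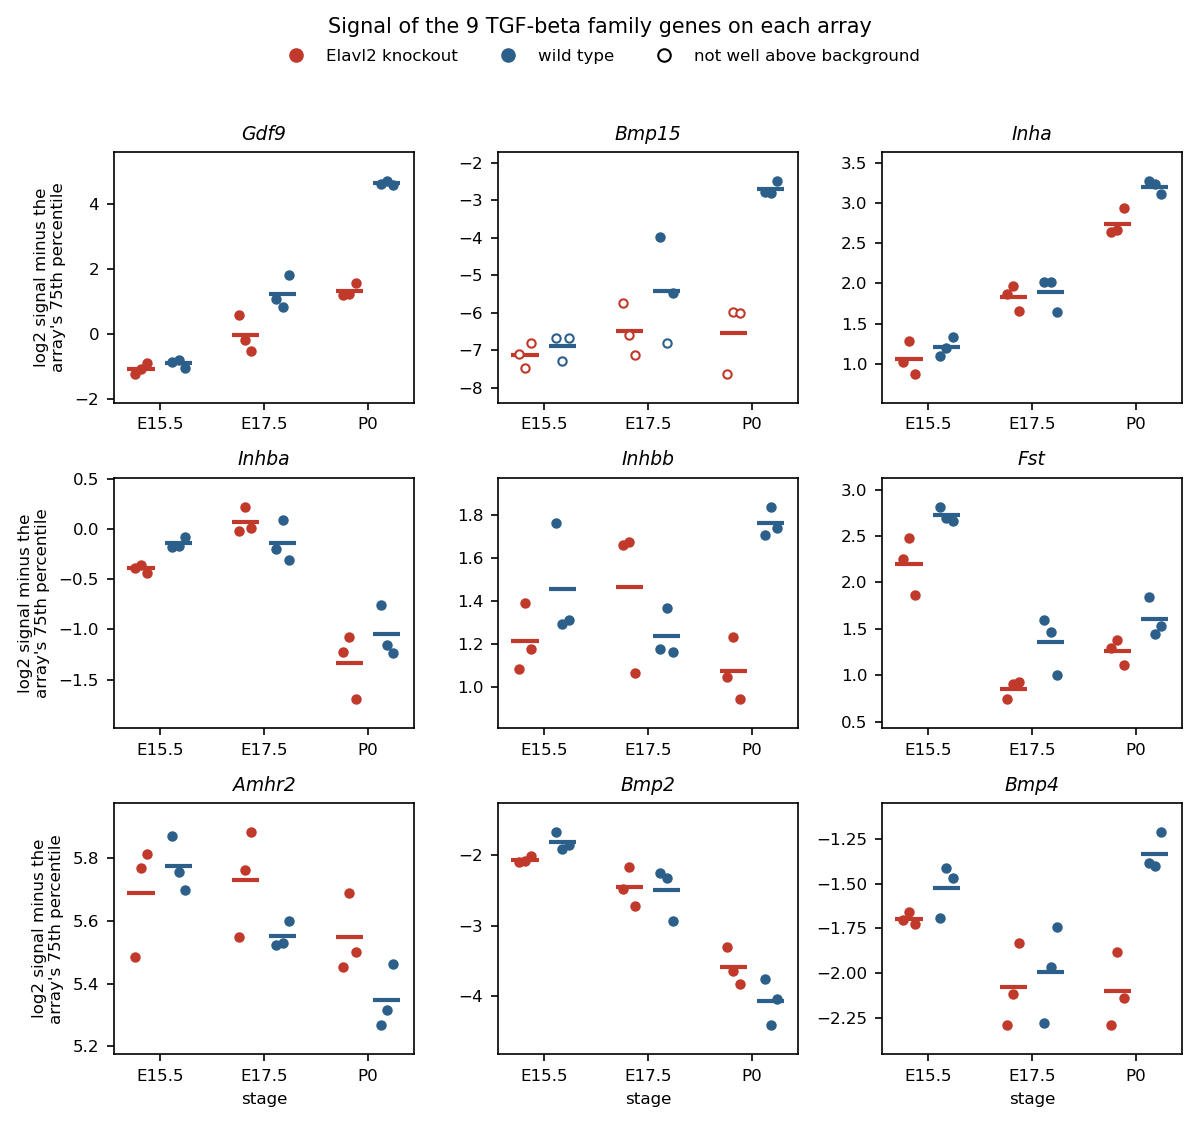
Log2 signal minus the array's 75th percentile (vertical axis) of the 9 genes on each of 18 arrays, by stage (horizontal axis). Points are arrays, knockout in red and wild type in blue, horizontal lines are means of 3 arrays, and open points were not well above background. At P0 the knockout arrays lie below all wild type arrays for Gdf9, Bmp15, Inha, Inhbb, Fst and Bmp4.

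The main difference between genotypes lay at P0, where 5 of the 9 genes were lower in knockout (Gdf9, Bmp15, Inha, Inhbb and Bmp4) and 1 was higher (Bmp2). Bmp15 passed the filter only through wild type at P0, so its place among the 5 was set by that filter. At that stage 34.5% of all genes tested were called, 16.1% lower and 18.3% higher in knockout. At E17.5 only Gdf9 was called, lower in knockout, against 4.16% of all genes (2.82% lower). At E15.5 limma called 0 members, with 1 member (Fst) at an unadjusted p under 0.05, against 1.62% of all genes called. The median change of the 9 members was −0.24, −0.06 and −0.46 at E15.5, E17.5 and P0, beside 0.01, 0.05 and −0.0009 over all genes.

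**Figure D2:**
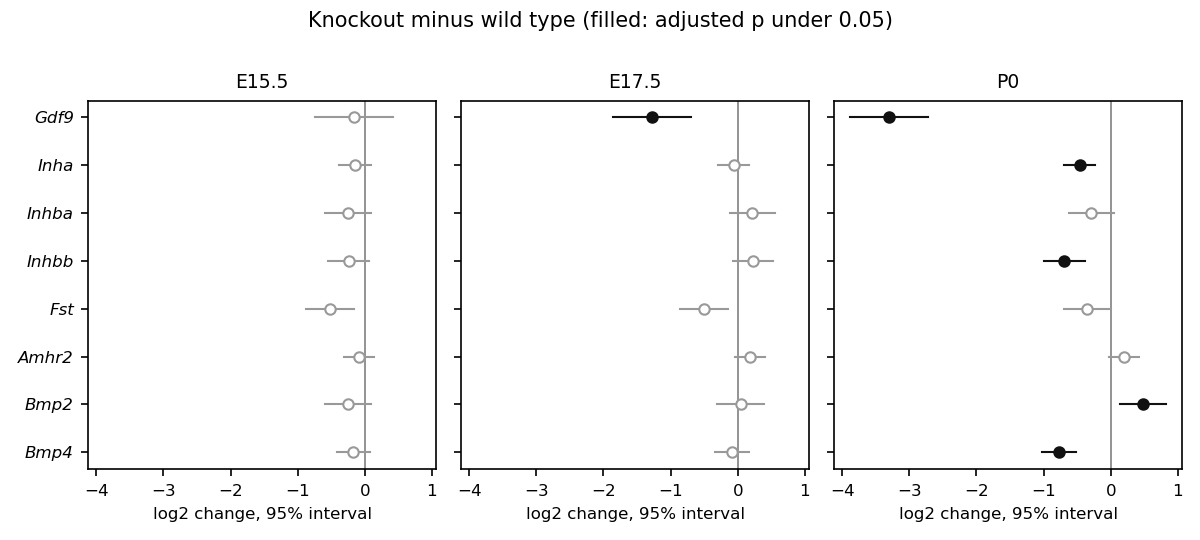
Knockout minus wild type log2 change (horizontal axis) of 8 of the 9 genes (vertical axis; Bmp15, below background in most groups, is not drawn) at E15.5, E17.5 and P0, with 95% intervals from limma. Filled points passed an adjusted p under 0.05: Gdf9 at E17.5, and Gdf9, Inha, Inhbb, Bmp2 and Bmp4 at P0.

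Gdf9, the oocyte growth factor that early follicles need to grow past the primary stage in mice, had the smallest adjusted p of the 9 genes at P0. Its level at P0 was 1.20, 1.23 and 1.56 in knockout, against 4.61, 4.71 and 4.57 in wild type. The 3 knockout arrays lay close together and far below every wild type array. Gdf9 was 9.84-fold lower in knockout, a change of −3.30 ± 0.27 (adjusted p 4.5e-06, limma).

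At E17.5, Gdf9 stood at 0.59, −0.20 and −0.52 in knockout, against 1.06, 0.82 and 1.81 in wild type. The groups did not overlap, but the highest knockout array and the lowest wild type array were near each other. The change was −1.27 ± 0.27 (adjusted p 0.0217, limma), and with the replicate number as a block the adjusted p was 0.0946. Within run A, where 1 pair of arrays was measured, the difference was −2.34, and within run B, with 2 pairs, it was −0.74 (adjusted p 0.318 on those arrays alone). The call was lost on leaving out wild type replicate 1 or 3 or knockout replicate 2 or 3, with changes from −1.65 to −0.74 over the 6 omissions. At E15.5, Gdf9 stood at −1.22, −1.08 and −0.90 in knockout, against −0.87, −0.79 and −1.04 in wild type, with overlapping groups and a change of −0.17 ± 0.27 (adjusted p 0.843).

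Bmp15, the X-linked oocyte ligand that pairs with GDF9, was well above background on 3 of 3 arrays in wild type at P0 and on 2 of 3 in wild type at E17.5, and on 0 of 3 in each other group. At P0 its signal was −7.62, −5.96 and −6.00 in knockout, against −2.79, −2.80 and −2.48 in wild type. Wild type arrays agreed closely, and all knockout arrays lay at signals that give only a bound. Bmp15 was at least 6.87-fold lower in knockout, the wild type mean set against the lowest signal well above background on each knockout array or the probe's own signal, whichever was higher (adjusted p 0.00046, limma). Its probe passed the filter only through the wild type arrays of this stage, so a difference here was built into its selection.

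At E17.5 the Bmp15 signal was −5.72, −6.59 and −7.11 in knockout, against −3.98, −6.79 and −5.47 in wild type. The wild type arrays were spread over a wide range, and replicate 2 fell among the knockout arrays. The change was not called (adjusted p 0.324, limma). At E15.5 the probe was not well above background on any of the 6 arrays, so no fold is given.

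Both oocyte ligands moved with part of the oocyte markers at P0. Of 8 oocyte markers measured, 4 fell in knockout (Zp1, Zp2, Zp3 and Oosp1) and 0 rose. Of all genes, 16.1% were called lower and 18.3% higher in knockout at P0. Zp3, a protein of the egg coat, averaged −2.38 in knockout and 2.94 in wild type at P0, a change of −5.32 ± 0.42 (adjusted p 3.33e-06). Figla, Nobox, Lhx8 and Kit, regulators of early oocytes and a receptor on them, were not called: Figla averaged 4.06 in knockout and 4.11 in wild type (−0.05 ± 0.20, adjusted p 0.874). Nobox averaged 3.90 in knockout and 4.36 in wild type (−0.46 ± 0.37, adjusted p 0.361). The summed linear level of the 8 markers, in units of the 75th percentile, was 44.6 to 63.8 in knockout and 75.6 to 78.2 in wild type at P0. At E17.5 it was 23.6 to 45.7 in knockout and 35.3 to 48.5 in wild type. Oosp1 was the 1 marker not well above background on all 3 knockout arrays at P0. Germ cell markers did not follow this direction: 3 of 6 rose in knockout at P0 (Dazl, Dnd1 and Tex101), 0 fell, and Ddx4 changed by 0.21 ± 0.14 (adjusted p 0.252). Fewer cells of a type and less RNA per cell cannot be told apart in whole ovaries, and the part of the markers in the members' changes was not tested.

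Among the inhibin and activin subunits, Inha and Inhbb were lower in knockout than in wild type at P0 while Inhba was not called. Inha, the alpha subunit, stood at 2.63, 2.66 and 2.93 in knockout, against 3.27, 3.23 and 3.11 in wild type. The groups did not overlap, with knockout replicate 3 nearest to wild type. Inha was 1.38-fold lower (−0.46 ± 0.11, adjusted p 0.00606). Scaling to the array median moved the change to −0.32 and the adjusted p to 0.0989. The second probe, shown above, read −0.94, −0.52 and −0.73 in knockout, against −0.51, −0.50 and −0.58 in wild type. On that probe the groups overlapped and the change was not called (−0.20 ± 0.13, adjusted p 0.253 over 29203 probes). The Inha change was −0.15 at E15.5 and −0.06 at E17.5, called at neither (adjusted p 0.594 and 0.77).

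Inhbb, the beta B subunit, stood at 1.04, 1.23 and 0.94 in knockout at P0, against 1.71, 1.84 and 1.74 in wild type. The groups were well apart, and Inhbb was 1.61-fold lower in knockout (−0.69 ± 0.14, adjusted p 0.00247). Its second probe read −4.74, −4.35 and −4.81 in knockout, against −3.50, −3.58 and −3.87 in wild type. That probe was dimmer but gave the same direction without overlap (−0.98 ± 0.25, adjusted p 0.0101). At E17.5, Inhbb stood at 1.66, 1.67 and 1.06 in knockout, against 1.18, 1.37 and 1.16 in wild type, and knockout replicate 3, on run A, was the lowest of the 6. The change there was 0.23 ± 0.14 and was not called (adjusted p 0.355), with −0.10 within run A and 0.39 within run B.

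Inhba, the beta A subunit, stood at −1.23, −1.08 and −1.70 in knockout at P0, against −0.75, −1.15 and −1.23 in wild type. The groups overlapped, and the change was not called (−0.29 ± 0.16, 95% interval −0.62 to 0.05, adjusted p 0.163). At E15.5 the knockout arrays, −0.38, −0.36 and −0.43, lay below the wild type arrays, −0.18, −0.17 and −0.08. That separation was small, and the change was not called (−0.25 ± 0.16, adjusted p 0.505). At E17.5 Inhba ranged from −0.02 to 0.22 in knockout and from −0.31 to 0.09 in wild type (0.21 ± 0.16, adjusted p 0.446).

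Fst, the activin antagonist, was lower in knockout without overlap at each of the 3 stages, yet was called at none. At E15.5 it stood at 2.26, 2.48 and 1.86 in knockout, against 2.82, 2.69 and 2.66 in wild type. At E17.5 it stood at 0.74, 0.90 and 0.93 in knockout, against 1.60, 1.47 and 1.01 in wild type, where replicate 3 came close to the knockout arrays. At P0 it stood at 1.29, 1.38 and 1.11 in knockout, against 1.84, 1.45 and 1.53 in wild type. The changes were −0.52 ± 0.16, −0.50 ± 0.16 and −0.35 ± 0.16, of similar size across stages. The adjusted p-values were 0.143, 0.104 and 0.119. Groups that did not overlap, with knockout lower, were found for 10.8%, 8.20% and 25.3% of all genes at E15.5, E17.5 and P0, and for 0.855% of genes at all 3 stages. Averaged over the 3 stages, a test added after these values were seen, Fst changed by −0.46 ± 0.09 (adjusted p 0.00406), and 25.8% of all genes were called. Within run A the E17.5 difference of Fst was −0.08, from replicate 3, the only pair of genotypes at a stage that shared a slide. Within run B the difference was −0.71, between slides. Slide and genotype cannot be told apart for the other Fst differences. Of the 9 members, 3 lay lower in knockout without overlap at E15.5 (Inhba, Fst and Bmp2), 2 at E17.5 (Gdf9 and Fst) and 6 at P0.

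Amhr2, the anti-Müllerian hormone receptor, kept nearly 1 level throughout and was called in none of the genotype comparisons. Over the 18 arrays it lay between 5.27 and 5.88. At P0 it stood at 5.45, 5.69 and 5.50 in knockout, against 5.27, 5.32 and 5.46 in wild type. The groups overlapped by 1 array, and the change was 0.20 ± 0.10 (95% interval −0.02 to 0.42, adjusted p 0.143). With the array median as the scale the change was 0.34 and was called (adjusted p 0.0226), and under that scale the median of all genes at P0 moved to 0.14. Signals of different probes are not set against each other here.

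Bmp2 is a ligand of the fetal ovary's somatic cells in mice. It was the only member called higher in knockout than in wild type at P0, and its groups overlapped. It stood at −3.30, −3.64 and −3.82 in knockout, against −3.76, −4.41 and −4.04 in wild type. Knockout replicate 3 fell within the wild type range. The change was 0.48 ± 0.16, 1.40-fold higher (adjusted p 0.0339). The call was lost on leaving out wild type replicate 2 or 3 or knockout replicate 1 or 2 (changes from 0.31 to 0.64 over the 6 omissions), and also without the run term (adjusted p 0.0961) and on the P0 arrays alone (adjusted p 0.129). At E15.5 the knockout arrays, −2.10, −2.09 and −2.02, lay below the wild type arrays, −1.68, −1.91 and −1.86, and the change was not called (−0.25 ± 0.16, adjusted p 0.522). At E17.5 the groups overlapped (0.04 ± 0.16, adjusted p 0.901).

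Bmp4, best known in mice for its part in the formation of primordial germ cells, stood at −2.29, −1.88 and −2.14 in knockout at P0, against −1.39, −1.40 and −1.21 in wild type. All knockout arrays lay below all wild type arrays by more than the spread within either group. Bmp4 was 1.71-fold lower in knockout (−0.77 ± 0.11, adjusted p 0.000318). At E17.5 it ranged from −2.29 to −1.83 in knockout and from −2.28 to −1.74 in wild type (−0.09 ± 0.11, adjusted p 0.698). At E15.5 the groups also overlapped (−0.17 ± 0.11, adjusted p 0.54).

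Whether the genotype change differed between stages was tested as an interaction in the same model. From E17.5 to P0 the change became more negative for 3 members: Gdf9 by −2.03 ± 0.38 (adjusted p 0.00697), Inhbb by −0.92 ± 0.20 (adjusted p 0.0133; −0.93 ± 0.35 and 0.116 on its second probe) and Bmp4 by −0.68 ± 0.16 (adjusted p 0.0201). Of all genes, 10.4% were called in that test. With the replicate block, Inhbb had an adjusted p of 0.0559. The Bmp4 call was lost without E17.5 knockout replicate 2, with array median scaling (adjusted p 0.0977) and without the run term (0.0735). From E15.5 to P0 the test called 4 members, against 19.9% of all genes. One of them, Bmp15, was not well above background in 3 of its 4 groups and is given no size. The others differed, Gdf9 by −3.13 ± 0.38 (adjusted p 0.000269), Bmp4 by −0.60 ± 0.16 (0.0224) and Bmp2 by 0.73 ± 0.23 (0.0389). The Bmp4 call here was also lost with array median scaling (0.142) and without the run term (0.0776). Without E15.5 wild type replicate 1 the Bmp4 call was lost and Inhbb, otherwise at −0.45 (adjusted p 0.127), was called. The Bmp2 call was lost in 10 of the 12 omissions of an array. Inhba, Fst, Amhr2 and Inha were called in neither test. Inha was called from E17.5 to P0 with normexp and quantile normalization (−0.51, adjusted p 0.0271), and Amhr2 from E15.5 to P0 with array median scaling (0.47, adjusted p 0.0372). Both tests share the P0 arrays.

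The levels also moved with stage within each genotype, shown here as fitted changes adjusted for the run. Only replicate 3 at E17.5 shared a run with E15.5, so the E17.5 minus E15.5 changes rest heavily on those arrays. From E15.5 to E17.5, 4 members were called in knockout (of 21.8% of all genes) and 4 in wild type (of 26.4%), the same 4 genes. Gdf9 changed by 1.07 in knockout and 2.18 in wild type, with 0.89 to 2.14 in knockout and 1.12 to 2.29 in wild type on leaving out 1 array. Inha changed by 0.55 in knockout and 0.47 in wild type. Fst fell in both genotypes, by 1.48 in knockout and 1.50 in wild type, and Bmp2 fell by 0.74 in knockout and 1.03 in wild type. Adjusted p-values were at most 0.0357. With the replicate block, Gdf9 in knockout and Inha in wild type were not called (adjusted p 0.0973 and 0.0554). Leaving out E17.5 replicate 3 left 2 of these calls in knockout and 1 in wild type.

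From E17.5 to P0, 5 members were called in knockout (37.2% of all genes) and 7 in wild type (43.3%). The 7 include Bmp15, which passed the filter only through wild type at P0, and whose probe stayed below background in knockout. Gdf9 rose by 1.40 in knockout and 3.42 in wild type, and Inha by 0.80 and 1.20. Inhbb was the member called in opposite directions: it fell by 0.51 ± 0.15 in knockout (adjusted p 0.0159) and rose by 0.41 ± 0.15 in wild type (adjusted p 0.0411), and the call was lost in 3 of 6 omissions in knockout and 5 of 6 in wild type. The second Inhbb probe was called in neither genotype (−0.32 in knockout, adjusted p 0.377, and 0.61 in wild type, adjusted p 0.0834). Bmp4 rose by 0.79 in wild type (adjusted p 0.00029) and changed by 0.10 in knockout (adjusted p 0.547). Inhba fell by 1.46 in knockout and 0.96 in wild type, and Bmp2 fell by 1.30 in knockout and 1.74 in wild type, all called. Fst and Amhr2 were called in neither genotype, though Amhr2 was called in wild type with array median scaling (−0.31, adjusted p 0.0359) and with normexp and quantile normalization (−0.35, adjusted p 0.0111).

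**Figure D3:**
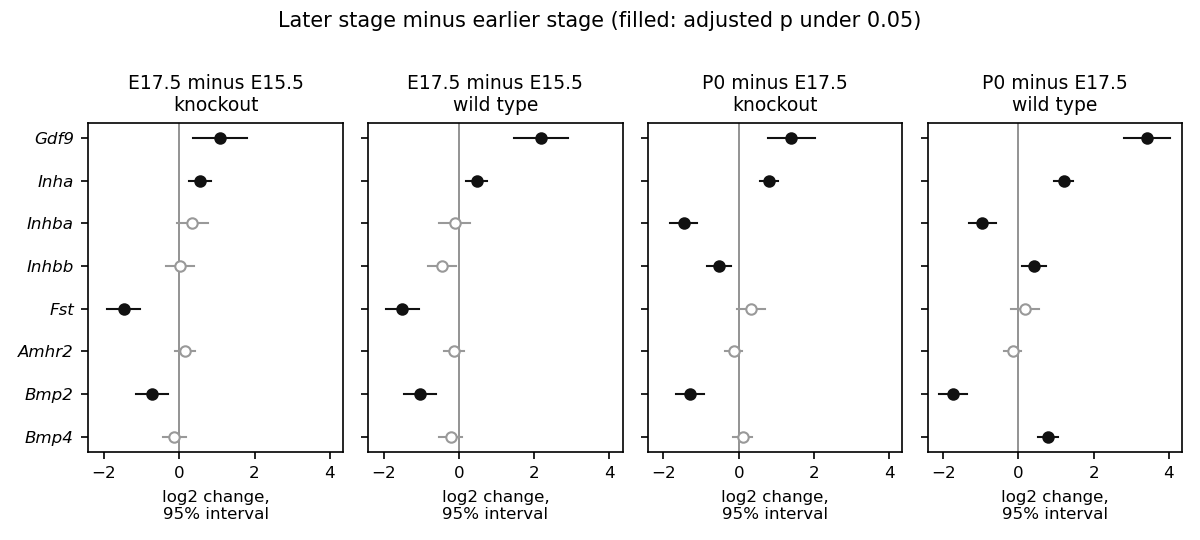
Fitted log2 change between consecutive stages (horizontal axis, later minus earlier) of 8 genes (vertical axis; Bmp15 is not drawn), with 95% intervals from limma, in knockout and wild type. Filled points passed an adjusted p under 0.05; Inhbb from E17.5 to P0 lies below 0 in knockout and above 0 in wild type.

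Ordered by mean level, Gdf9 went up from E15.5 knockout (−1.07 ± 0.16, SD, n = 3) over E15.5 wild type (−0.90 ± 0.13), E17.5 knockout (−0.04 ± 0.58), E17.5 wild type (1.23 ± 0.52) and P0 knockout (1.33 ± 0.20) to P0 wild type (4.63 ± 0.07). Ranges of neighbours overlapped for the E15.5 pair and for P0 knockout with E17.5 wild type. The P0 knockout arrays (1.20 to 1.56) lay within the range of the E17.5 wild type arrays (0.82 to 1.81). Only E17.5 wild type replicate 3, on run A, lay above them, while all P0 arrays were on run B. The means ordered here are not adjusted for the run. Bmp15 separated only P0 wild type from the other groups. Inhbb and Bmp4 had their highest group mean in P0 wild type and their lowest in P0 knockout, and Amhr2 neighbours overlapped throughout. Fst and Bmp2 were highest in E15.5 wild type, followed by E15.5 knockout.

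The genes with profiles most like each member's were found as the root mean square difference between centred log2 profiles over the 18 arrays. For Gdf9 they were Dnah9 (0.35), Krt36 (0.39) and Gm11545 (0.40), with P0 genotype changes of −2.56, −2.76 and −3.65. The P0 arrays were among those used to pick these genes, so such changes were set by the choice. For Bmp15 they were Unc13c (0.63), Rfpl4 (0.73) and Fbxw19 (0.73). The Bmp15 probe was not well above background in most groups, so these matches rest largely on such signals. For Amhr2 the nearest gene was Gpx8 (0.06). The distances were not scaled by the spread of a gene. That spread, as the SD over the arrays, was 2.00 for Gdf9, 1.69 for Bmp15 and 0.18 for Amhr2. The larger distances of the oocyte ligands can therefore not be set directly against those of the other members. For Inha the nearest gene was Smagp (0.17), for Inhba the transcript AK039015 (0.15), for Inhbb Defb19 (0.15), for Fst Hmga2 (0.24), for Bmp2 Grik1 (0.20) and for Bmp4 Rpp40 (0.14). The next 2 were Tmem243 and Cpm for Inha, Socs5 and AK085406 for Inhba, Itpr2 and Tiam1 for Inhbb, Rnf20 and Smarca4 for Fst, Ifngr2 and Gnai3 for Amhr2, Ablim3 and Cth for Bmp2, and Farp2 and Prmt5 for Bmp4.

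Of 68 other genes of the pathway, 59 were tested. At P0, 21 of them rose in knockout and 6 fell, and 32 were not called, beside the 34.5% of all genes called. Their median change was 0.11, against −0.0009 over all genes. By role, 6 of 8 target genes rose and 0 fell, 5 of 13 receptors rose and 2 fell, and 4 of 8 SMADs rose and 1 fell. Of 11 extracellular antagonists, the pseudoreceptor among them, 3 rose and 1 fell, and of 19 further ligands 3 rose and 2 fell.

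The target genes Id2 and Id3, inhibitors of basic helix-loop-helix factors that respond to BMP signals, rose by 0.77 ± 0.09 and 0.76 ± 0.09 (adjusted p 7.83e-05 and 9.14e-05). Id2 averaged 3.72 in knockout and 2.95 in wild type. Skil, a SMAD co-repressor that responds to TGF-beta, averaged 0.41 in knockout and −0.29 in wild type (0.70 ± 0.09, adjusted p 0.000144). Acvr1, Tgfbr1 and Acvr2a, receptors of the BMP, TGF-beta and activin branches, rose by 0.53, 0.54 and 0.47 (adjusted p 0.000265, 0.000565 and 0.000793). Gdf15, a divergent family ligand linked to cell stress, averaged −5.36 in knockout and −4.43 in wild type (−0.93 ± 0.13, adjusted p 0.000159). Bmpr1b and Acvr1b, type 1 receptors, fell by 0.75 and 0.35 (adjusted p 0.000182 and 0.00719). Smad9, a SMAD of the BMP branch, Nog, a BMP antagonist, and the ligand Nodal fell by 1.19, 0.92 and 0.47 (adjusted p 0.0169, 0.0187 and 0.0365). Smad9 averaged −5.52 in knockout and −4.33 in wild type. The knockout means of Smad9 and Gdf15 lay near −5.47, the mean bound used for Bmp15 on those arrays, so their sizes are uncertain. Under array median scaling the share of called genes that were higher in knockout at P0 was 73.3%, against 53.1% in the model above, so the balance of rises and falls depends on the scale.

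**Figure D4:**
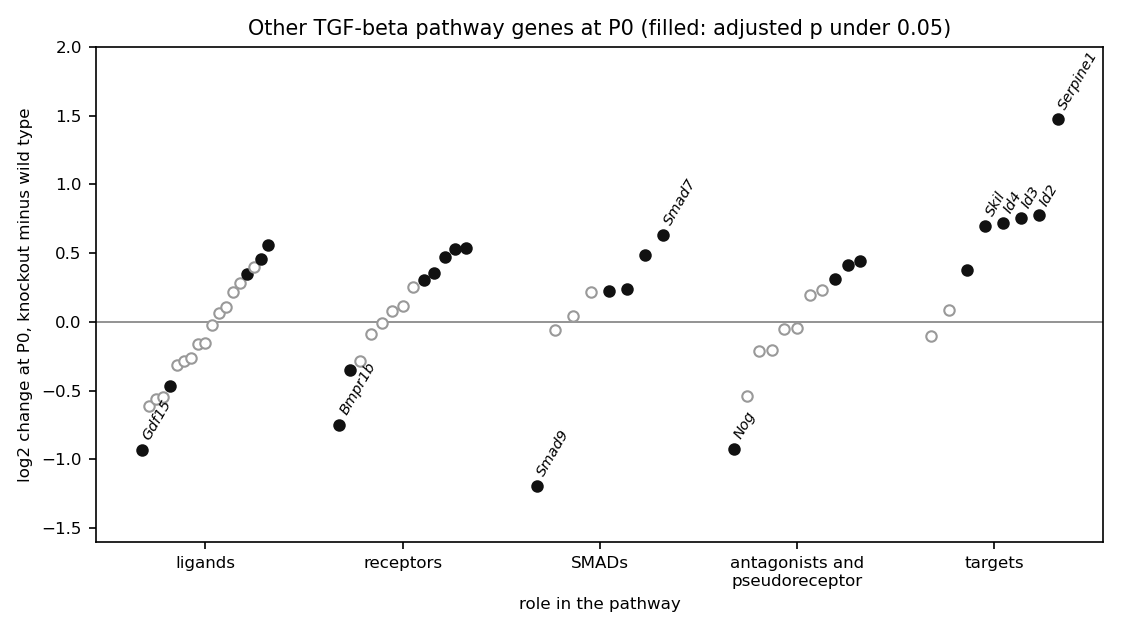
Knockout minus wild type log2 change at P0 (vertical axis) of the 59 other pathway genes tested, by role (horizontal axis) and in order of size within a role. Filled points passed an adjusted p under 0.05, and called genes past 0.6 in size are named; 6 of 8 targets lie above 0 as filled points.

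At E17.5, Skil and Gdf15 rose (0.45 and 0.50, adjusted p 0.0196 and 0.0442) and Id1, another BMP target, fell by 0.81 (adjusted p 0.0118). The other 56 of the 59 were not called, and 4.16% of all genes were called at that stage. At E15.5 Id1 fell by 0.94 (adjusted p 0.00996) and 58 were not called, beside 1.62% of all genes called. Gdf15 was thus called higher at E17.5 and lower at P0 in separate tests. A test of its difference between these stages is not given, and its P0 signal was low, as stated above.

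Markers of other cells moved at P0 beside these changes. Of 8 pregranulosa markers, 4 rose in knockout (Irx3, Kitl, Nr0b1 and Rspo1) and 0 fell. The summed level of the 8 was 66.3 to 77.1 in knockout and 50.8 to 59.5 in wild type. That sum rests largely on Rspo1, the brightest of them, at 5.77 in knockout and 5.34 in wild type on the log2 scale. Foxl2, the defining factor of granulosa cells, was not called (−0.13 ± 0.11, adjusted p 0.385). Of 5 endothelial markers 3 rose and 0 fell (sums 7.05 to 8.85 in knockout, 5.56 to 6.64 in wild type). The sum of 5 red cell markers at E17.5 was 202 to 407 in knockout, highest in replicate 3, and 135 to 199 in wild type. None of these markers was called at E17.5 (adjusted p 0.242 to 0.367, limma). At P0 their sum was 63.8 to 72.4 in knockout and 44.3 to 137 in wild type. Of 4 Sertoli markers 2 rose (Cldn11 and Sox9) and 1 fell (Dhh), with sums of 1.12 to 1.32 in knockout and 1.08 to 1.1 in wild type. Of 4 surface epithelium markers 3 rose (Krt19, Krt8 and Upk3b) and 0 fell, with sums of 27.1 to 32.4 in knockout and 21.6 to 26.5 in wild type. Of 6 stroma markers 2 rose (Nr2f2 and Pdgfra) and 0 fell, with sums of 158 to 198 in knockout and 146 to 188 in wild type. Of 4 markers of mesonephros and duct, Emx2 rose and Lhx1 fell, with sums of 2.78 to 3.07 in knockout and 1.65 to 2.22 in wild type. This sum mainly repeats Emx2, which averaged 1.48 in knockout and 0.78 in wild type on the log2 scale. Lhx1, Pax2 and Pax8 averaged −4.43, −5.09 and −4.40 in knockout and −4.05, −4.99 and −4.42 in wild type. Of 4 macrophage markers Adgre1 rose, and of 5 steroidogenic markers limma called 0 at P0. The part of these cells in the members' changes was not tested.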

How the data were processed

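RNA of 18 whole-gonad samples was read on Agilent 4x44K 1-colour arrays (Cy3, per the labels' protocols). The deposited scanner files hold a background-subtracted intensity per spot, which the authors obtained with Agilent Feature Extraction (10.7.3.1 per the file headers, but 9.5 in the submitters' processing notes). The deposited series matrix holds log2 values that equal the log2 intensity plus 1 constant per array for at least 99.6% of probes (within 0.01), and it served as an alternative.

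Control spots and outlier spots (51 to 109 per array) were left out, and 0 spots were saturated. The log2 intensity of each of 41174 probes, minus the array's 75th percentile, was used. Probes had to exceed background clearly on every array of 1 or more groups (29203 did), and the brightest probe over all arrays stood for a gene (19299 genes). Names came from RefSeq (GRCm38.p6) for 28223 probes, of which 1471 changed, and from the files for 12951. Coordinates are on mm9, except promoter windows.

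A limma 3.58.1 model (R 4.3.3) with the 6 groups and the run, read from the scan day in the headers, left 11 residual degrees of freedom. It was tested on simulated data. The number of arrays limits the precision. To see whether replicate numbers pair samples, deviations from the group means were correlated between same-numbered arrays: the 3 pairs at E17.5 lay at 0.12, 0.40 and 0.45, so the replicate block is given there. Differently numbered pairs at E17.5 reached 0.28 and 0.32, and replicate 3 alone was on run A. At E15.5 the same-numbered pairs lay at 0.178, 0.205 and −0.117. At P0 they lay at 0.149, 0.101 and 0.081, above all differently numbered pairs (−0.140 to 0.031), so samples may be paired there too. With the replicate block, limma called 5690 genes at P0 in place of 6649.

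The members and lists were chosen with earlier results of these data known. All members are named in every comparison, as are up to 6 other pathway genes each way with the smallest adjusted p, and the 3 genes nearest to each member. Of the pathway list, 9 genes did not pass the filter. Figures were drawn with matplotlib 3.10.9.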

Additional observations from a re-analysis of the deposited data

Results flagged for a closer look

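The genotype change was called as differing between stages for 6 combinations of gene and stage, each by a test of the difference itself in the limma model over all arrays. Gdf9 changed by −2.03 more at P0 than at E17.5 (adjusted p 0.00697), Inhbb by −0.92 (0.0133) and Bmp4 by −0.68 (0.0201). Between E15.5 and P0 the differences were −3.13 for Gdf9 (0.000269), 0.73 for Bmp2 (0.0389) and −0.60 for Bmp4 (0.0224). The Bmp2 call was lost in 10 of the 12 omissions of an array, without the run term (adjusted p 0.113, limma) and with no filter (0.0623). It was also lost with the slide as a random block (0.0657) and on the groups' own arrays (0.0624). Both Bmp4 calls were lost with array median scaling and without the run term. The Inhbb call was lost with the replicate block (0.0559) and absent on its second probe (0.116). From E17.5 to P0, Gdf9 rose by 1.40 in knockout and by 3.42 in wild type. Bmp15 was also called between E15.5 and P0, but its probe was not well above background on any E15.5 array, so it has no measured size there. Groups of 3 arrays are too small to look for single outlying samples.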

How the results depend on the processing

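The counts of all genes called moved most at the early stages. At E15.5 (312 genes) they were 207 with no filter, 40 without the run term, 144 with the slide as a random block, 0 on the E15.5 arrays alone (limma, with 2894 genes below 0.05 unadjusted) and 19 with the replicate block, and 23 to 472 on leaving out 1 array. At E17.5 (802 genes) they were 385 with array median scaling, of which 19.7% were higher in knockout against 32% otherwise, 463 with no filter, 350 without the run term, 1 on the E17.5 arrays alone, 167 with the replicate block and 0 on the run B arrays (limma, 3367 genes below 0.05 unadjusted), and 141 to 1033 on leaving out 1 array. At P0 (6649 genes) leaving out 1 array gave 4796 to 6371.

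The number of members called at E15.5 was 0 under every alternative run. At E17.5 it was 0 in place of 1 on the stage's own arrays, with the replicate block and on run B, and 0 to 1 on leaving out an array. At P0 it stayed at 5 or 6, also on leaving out an array; the stricter filter dropped Bmp15. For the interaction from E17.5 to P0 it was 5 with normexp and quantile normalization in place of 3, and 2 to 4 on leaving out an array. For that from E15.5 to P0 it was 2 without the run term in place of 4, and 3 to 4 on leaving out an array. For E17.5 minus E15.5 in knockout it was 2 with array median scaling and 0 on the groups' own arrays in place of 4, and 2 to 4 on leaving out an array, and in wild type 1 to 5. For P0 minus E17.5 it was 4 to 5 in knockout and 6 to 7 in wild type on leaving out an array.

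Signs turned for values that were not called in the model reported, the farthest from 0 being Inhbb from E15.5 to E17.5 in wild type (−0.46), which was called with array median scaling (−0.66, adjusted p 0.0158) and trended moderation (adjusted p 0.0436). With normexp and quantile normalization these were Amhr2 at E17.5 (−0.078), Inhba in the E15.5 to P0 interaction (0.023), Amhr2 (0.0059) in wild type and Bmp15 (−0.059) in knockout from E15.5 to E17.5; with quantile normalization, Amhr2 in the E17.5 to P0 interaction (−0.0047); with array median scaling, Inhba in the E15.5 to P0 interaction (0.14) and Inhbb (−0.17) and Amhr2 (−0.043) from E15.5 to E17.5 in knockout. Without the run term they were Inhba from E15.5 to E17.5 in wild type (0.0019) and Bmp4 from E17.5 to P0 in knockout (−0.022); with the mean of probes, Inhbb from E15.5 to E17.5 in wild type (0.10); with the replicate block, Inhba in wild type (0.019) and Bmp15 in knockout (−0.015) over the same stages. On the groups' own arrays, and on those of run A alone, Inhbb from E15.5 to E17.5 in knockout was −0.15, and on run B Bmp2 at E17.5 was −0.039.

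On leaving out an array, signs also turned for Amhr2 at E15.5 (−0.15 to 0.018), Bmp4 at E17.5 (−0.18 to 0.0039), Bmp2 at E17.5 (−0.039 to 0.15), Inhbb from E15.5 to E17.5 in knockout (−0.052 to 0.34), Bmp15 from E17.5 to P0 in knockout (−0.51 to 0.32), Bmp4 from E17.5 to P0 in knockout (−0.0072 to 0.20), Amhr2 in the E17.5 to P0 interaction (−0.057 to 0.076) and Inhba in the E15.5 to P0 interaction (−0.17 to 0.14). The causes were not tested. The number of arrays limits these values, and Bmp15 is limited by its signal over background.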

Other observations

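In the test of the genotype difference averaged over the 3 stages, which was added after Fst was seen to lie lower in knockout at each stage, 25.8% of all genes were called (limma), so it is no independent support. Beside Fst, the test called Gdf9 (−1.58), Bmp4 (−0.34), Inha (−0.22) and Inhbb (−0.23), the last with an adjusted p of 0.0498. It also called Bmp15, whose probe was not well above background in 4 of the 6 groups and which is given no size. Inhba (−0.11, adjusted p 0.399), Amhr2 (0.10, adjusted p 0.239) and Bmp2 (0.09, adjusted p 0.504) were not called.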
